A study of Sus scrofa with 48 samples.

Results

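Conjugating transferases attach a small polar group to drugs, pollutants, hormones and products of lipid peroxidation, and the liver is their main site. Glutathione S-transferases (GST, with the membrane-bound MGST) add glutathione, UDP-glucuronosyltransferases (UGT) add glucuronic acid from UDP-glucuronic acid, and cytosolic sulfotransferases (SULT) add sulfate from the donor PAPS. The resulting conjugates are more soluble in water and leave the cell through efflux pumps.

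The members of these families were taken by gene name from the annotation of the array, and each gene was represented by its brightest probe. There were 40 probes of 18 genes among 60305 probes and 14606 gene names. They were 8 cytosolic GST genes (GSTA1, GSTA2, GSTA4, GSTM3, GSTO1, GSTP1, GSTT1 and GSTZ1), GSTK1, 3 MGST genes (MGST1, MGST2 and MGST3), UGT2A2 and UGT2B15, and 4 SULT genes (SULT1A1, SULT1E1, SULT2A1 and SULT4A1). No probe was named for a gene of the UGT1, UGT3 or UGT8 families.

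Liver RNA from 48 purebred Large White barrows was hybridized with 1 array per pig. The pigs belonged to lines selected for 8 generations for a low or a high residual feed intake (RFI), the feed eaten beyond what growth and fatness predict, and both came from the same selection herd. From 74 days of age, 12 pigs of each line received a high-fat high-fiber (HF) diet and 12 a low-fat low-fiber (LF) diet, fed ad libitum, and tissues were taken after a meal at about 19 weeks of age. The 4 groups were thus low RFI with HF, high RFI with HF, low RFI with LF and high RFI with LF, and none was from an unselected line.

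Values are log2 intensities after background subtraction, relative to the median of the array, so that a level can be compared between pigs for the same probe but not between probes. A probe was tested when it was well above background on at least 12 arrays, which held for 39 probes and 17 genes of the families. Line effects are low RFI minus high RFI, diet effects are HF minus LF, and a probe was called at an adjusted P under 0.05 (limma, Benjamini-Hochberg over all 45236 tested probes). Median intensities of the arrays ranged from 53.04 to 126.4 in scanner units, and 65.8 to 77.2% of probes were well above background. The 7 tested hepatocyte markers of 8 listed, among them ALB and TTR, passed that threshold on each of the 48 arrays. SULT4A1 was the member left out, being well above background on 4 arrays, and no level is given for it.

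Between the lines, 2 of the 17 tested genes were called, SULT1A1 and MGST2, and both were lower in the low RFI pigs. Among the brightest probes of all named genes, 3.98% were called for line and 1.9% were called as lower. At a P under 0.01 and a fold-change (FC) over 1.1, the cut-offs of the study, the same count of 2 was reached beside 6.98% of all named genes. The median log2 FC of the 17 genes was 0.09, beside 0.01 over all named genes. Of the 17 genes, 12 lay above 0 and 5 below, while 53.2% of all named genes lay above 0. The 15 genes of the families that were not called had log2 FC between -0.30 and 0.26. Their adjusted P was 0.18 or more and their SE between 0.04 and 0.21.

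SULT1A1 encodes the phenol sulfotransferase, which conjugates small phenols, including drugs such as paracetamol. It had 3 probes of 60 bases each, and their sequences tell how far they measure the transcript separately. The following stretches of 30 bases are shown 5′ to 3′, with a capital at the base that differs between overlapping probes.
SULT1A1, brightest probe A_72_P517960: tggcctataaacttGtgcatgctgttgctg
SULT1A1, probe A_72_P282179: tggcctataaacttCtgcatgctgttgctg
SULT1A1, probe A_72_P223957: acttCtgcatgctgttgctgtggcccaaaa

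The brightest probe overlapped the second over 33 bases and the last over 23 bases, with 1 difference, G42C, counted from the 5′ end of the brightest probe. The other pair overlapped over 50 bases without a difference. All 3 probes therefore read nearly the same place in the transcript. The accession on which they were designed carries the symbol SULT1A3 in the current RefSeq table of Sscrofa11.1, with SULT1A1 as a synonym, and binding to related 1A genes was not tested.

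For the brightest probe of SULT1A1, levels were 6.67 at the lowest, 7.65 at the median and 8.56 at the highest in the low RFI line fed HF, against 7.35, 8.38 and 8.95 in the high RFI line with HF. With LF, they were 6.67, 7.73 and 8.49 in the low RFI line and 7.57, 8.61 and 9.31 in the high RFI line. The groups overlapped within each diet, but 21 of 24 low RFI pigs lay under the high RFI median. The mean was 7.65 ± 0.54 in the low RFI line and 8.45 ± 0.52 in the high RFI line (SD, n = 24 each), a log2 FC of -0.80 with SE 0.15 (limma, adjusted P = 0.00032). The other probes gave log2 FC of -0.83 and -0.86, each with an adjusted P of 0.0003.

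MGST2 encodes a membrane-bound transferase of the endoplasmic reticulum that reduces lipid hydroperoxides and can form leukotriene C4 from leukotriene A4. Its only probe was named through a human protein entry. The first 30 bases of that probe identify it among the MGST probes.
MGST2, probe O13292: atatctggacctcaatattgccaagaaact

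MGST2 levels in the low RFI line with HF were 4.55 at the lowest, 5.54 at the median and 5.93 at the highest, whereas the high RFI line with HF had 5.56, 6.35 and 6.66. With LF, they were 4.82, 5.49 and 6.57 in the low RFI line and 5.18, 5.91 and 6.53 in the high RFI line. The overlap was smaller with HF than with LF, where the highest level belonged to the low RFI line. The mean was 5.47 ± 0.43 against 6.06 ± 0.44 (SD, n = 24 each), and 23 of 24 low RFI pigs lay under the high RFI median. The log2 FC was -0.59 with SE 0.12 (limma, adjusted P = 0.0012).

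A probe outside the families by name, TC555084, is described on the array as bovine microsomal glutathione S-transferase 2. Its level was 5.91 ± 0.43 in the low RFI line and 6.50 ± 0.44 in the high RFI line (SD, n = 24 each), a log2 FC of -0.59 with SE 0.12 (limma, adjusted P = 0.0011). Its line log2 FC was close to that of MGST2, and its sequence was not among those compared for overlap. Like MGST2, TC555084 was called on scan day 2 alone (-0.76, adjusted P = 0.037) and not on scan day 1 alone (-0.42, adjusted P = 0.30). Other probes outside the families but described as a GST were also examined. Those of LOC100526118 are described below with no test, because that gene was chosen after its values were seen. None of the remaining probes was called for line. Their line log2 FC were 0.11 and 0.08 (mu 2), 0.08 (theta 1) and -0.52 (A4-like), with adjusted P of 0.52 or more (limma).

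**Figure D1:**
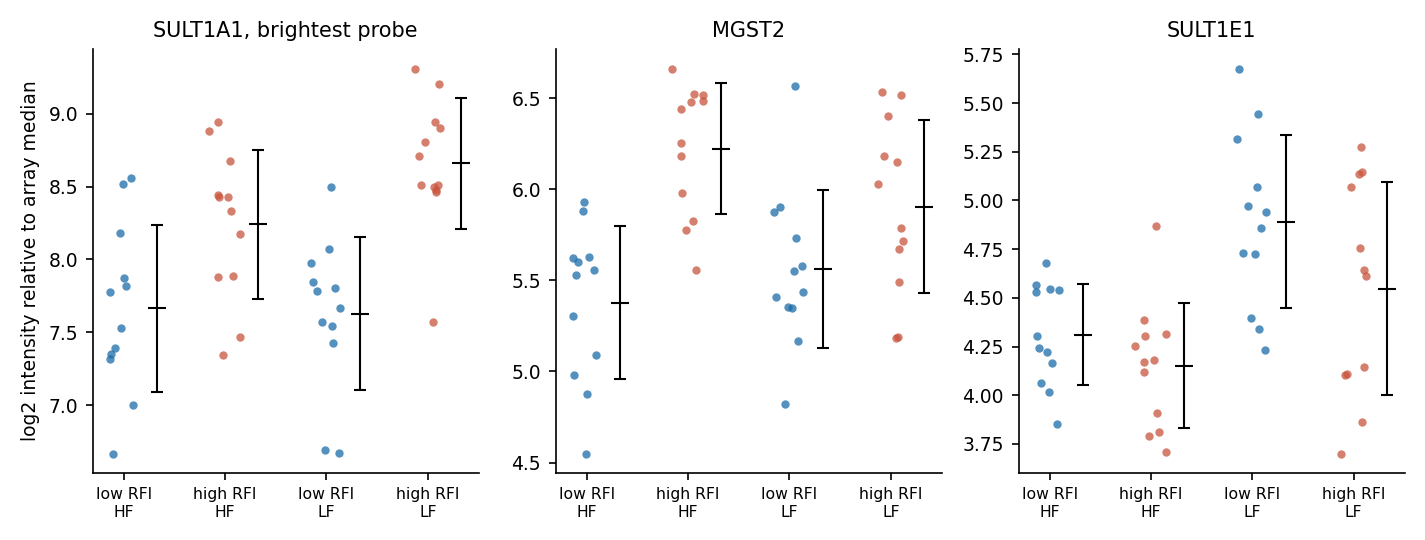
Each point is 1 pig (12 per group), with the log2 intensity relative to the array median on the vertical axis and the line and diet groups on the horizontal axis; bars are the mean ± SD of the group. SULT1A1 and MGST2 were lower in the low RFI line (blue) than in the high RFI line (red), with log2 FC of -0.80 and -0.59, and SULT1E1 was lower with HF than with LF, with a log2 FC of -0.49; the vertical axes differ between panels and do not start at a common level.

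Within a single diet, the line effect on SULT1A1 was -1.03 on the log2 scale with LF (SE 0.21, limma adjusted P = 0.004) and -0.58 with HF (SE 0.21, adjusted P = 0.25). The order was the opposite for MGST2, with -0.85 with HF (SE 0.17, adjusted P = 0.005) and -0.34 with LF (SE 0.17, adjusted P = 0.51). Each diet thus had 1 called gene of 17, beside 0.752% of all named genes with HF and 0.696% with LF. The difference of the line effect between diets, which is the interaction, was 0.45 for SULT1A1 with a 95% interval from -0.13 to 1.04 and -0.50 for MGST2 with an interval from -0.99 to -0.02. After adjustment the interaction had P = 0.9999 (limma) for both genes, so a line effect that depends on diet was not shown for either.

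No gene of the families was called for the interaction, and 0% of all named genes were (limma). At an unadjusted P under 0.05 there was 1 gene of 17, MGST2 with P = 0.042, beside 2.02% of all named genes. The call counts for line rested on both scan days together. On the arrays of scan day 1 alone, SULT1A1 was called (log2 FC -0.85, adjusted P = 0.045) and MGST2 was not (-0.40, adjusted P = 0.34). On those of scan day 2 alone, MGST2 was called (-0.79, adjusted P = 0.028) and SULT1A1 was not (-0.76, adjusted P = 0.065), each day having 24 arrays with 6 of each group.

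Over the 48 pigs and after removal of the group means, no correlation between the levels of SULT1A1 and MGST2 was detected (Pearson r = 0.08, 2-sided permutation test with 100000 resamples, P = 0.58; Spearman rho = 0.05, P = 0.74). Without the 2 pigs farthest from the median of MGST2, r was 0.19 (P = 0.20), and it was 0.18 (P = 0.40) on scan day 1 and -0.09 (P = 0.66) on scan day 2.

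Between the diets, 1 of the 17 genes was called, SULT1E1, which was lower with HF. Among all named genes, 0.536% were called for diet and 0.24% were called as lower. The same gene was the only one to pass the cut-offs of the study, which 4.17% of all named genes passed. The median log2 FC of the 17 genes was -0.05, beside -0.02 over all named genes. Of the 17 genes, 5 lay above 0 and 12 below, while 44.3% of all named genes lay above 0.

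SULT1E1 is the estrogen sulfotransferase, which inactivates estrogens by sulfation. It had a single probe, of which the first 30 bases are given.
SULT1E1, probe A_72_P035876: gtgaggcataacagaactgatttccagatg

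SULT1E1 levels with HF were 3.85 at the lowest, 4.28 at the median and 4.68 at the highest in the low RFI line, and 3.71, 4.18 and 4.87 in the high RFI line. With LF, they were 4.23, 4.90 and 5.68 in the low RFI line and 3.70, 4.63 and 5.27 in the high RFI line. The lowest pigs of either diet had like levels in the high RFI line, whereas the highest pigs were those with LF in both lines. The mean was 4.23 ± 0.30 with HF and 4.72 ± 0.52 with LF (SD, n = 24 each), and 23 of 24 pigs with HF were below the median of the pigs with LF. The log2 FC was -0.49 with SE 0.12 (limma, adjusted P = 0.040).

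The diet effect on SULT1E1 was -0.58 (SE 0.16, limma adjusted P = 0.23) in the low RFI line and -0.40 (SE 0.16, adjusted P = 0.68) in the high RFI line. No gene of the families was called for diet within a line, beside 0% of all named genes in the low RFI line and 0.024% in the high RFI line. The call was lost when dim probes were not filtered out (adjusted P = 0.068) and on either scan day alone (log2 FC -0.33 on day 1 and -0.65 on day 2, adjusted P = 0.66 and 0.24). The line effect on SULT1E1 was 0.25 (SE 0.12, adjusted P = 0.28), which did not pass the test.

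**Figure D2:**
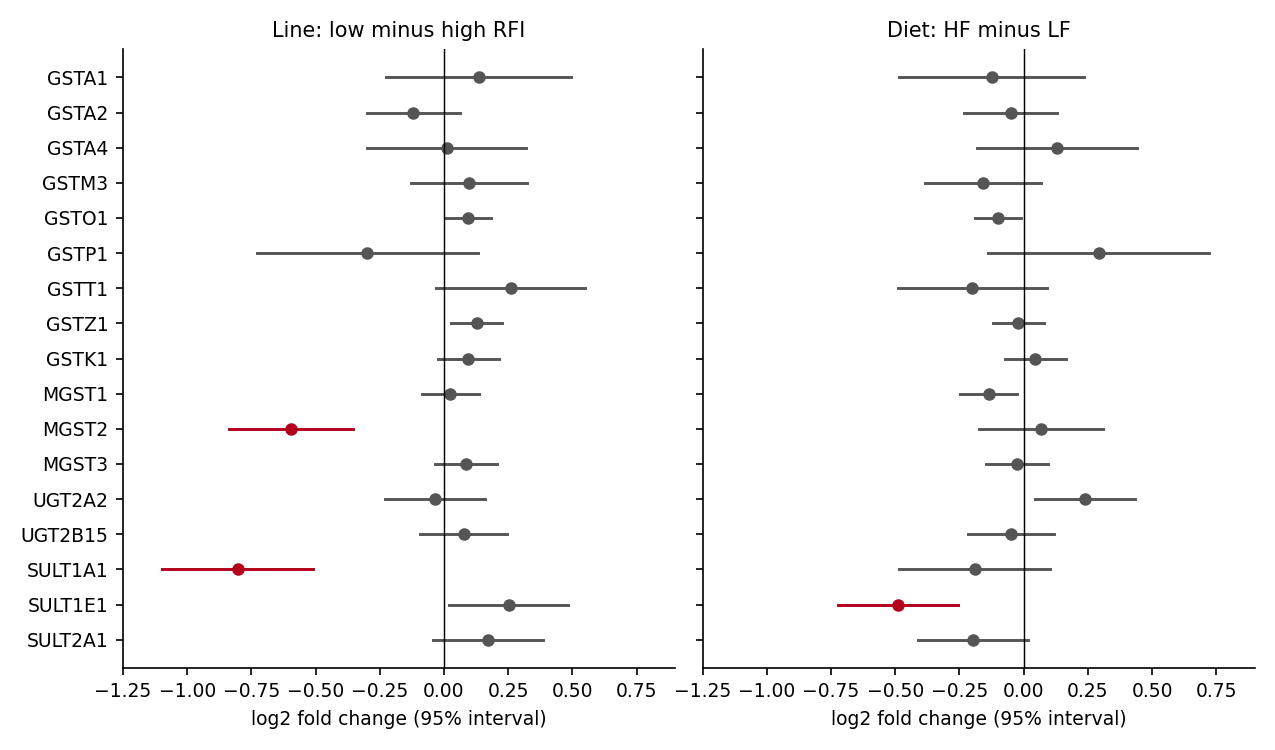
Log2 FC of the brightest probe of each of the 17 tested genes, with its 95% interval, for line (left, low minus high RFI) and diet (right, HF minus LF); genes called at an adjusted P under 0.05 are red and the others grey. Only MGST2 and SULT1A1 are red for line and only SULT1E1 for diet, and the widest interval is that of GSTP1.

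The cytosolic GST genes were not called for either effect. GSTO1, the omega class enzyme that reduces dehydroascorbate, had levels of 8.86, 9.22 and 9.43 (lowest, median, highest) in the low RFI line and 8.95, 9.16 and 9.25 in the high RFI line with HF. With LF, its levels were 9.15, 9.32 and 9.48 in the low RFI line and 8.85, 9.27 and 9.48 in the high RFI line. The 4 groups overlapped, with a line log2 FC of 0.09 (SE 0.04, limma adjusted P = 0.30) and a diet log2 FC of -0.10 (SE 0.04, adjusted P = 0.29). GSTZ1, which isomerizes maleylacetoacetate in the breakdown of tyrosine, had a line log2 FC of 0.13 on each of its 3 probes (lowest adjusted P = 0.18).

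GSTT1, of the theta class, had a line log2 FC of 0.26 (SE 0.14, adjusted P = 0.42), and GSTM3, of the mu class, one of 0.10 (SE 0.11, adjusted P = 0.79). GSTP1, of the pi class, had the largest SE of the 17 genes (0.21), with levels from 1.48 to 3.74 in the low RFI line and from 1.54 to 4.03 in the high RFI line. Its line log2 FC was -0.30 with a 95% interval from -0.73 to 0.13, and adjusted P = 0.59. GSTK1, the kappa class enzyme of mitochondria and peroxisomes, had levels of 7.94, 8.46 and 8.68 in the low RFI line and 8.04, 8.47 and 8.67 in the high RFI line with HF. LF levels were 8.11, 8.48 and 8.73 in the low RFI line and 7.76, 8.29 and 8.63 in the high RFI line, and the line log2 FC was 0.10 (SE 0.06, adjusted P = 0.50).

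The alpha class, the main GST class of hepatocytes, contained the pigs that stood farthest apart. GSTA2 had 3 probes. The annotation lists the brightest of them, A_72_P127076, under the accessions of both GSTA2 and GSTA1, while A_72_P088136 lists that of GSTA2 and not that of GSTA1, and A_72_P634937 comes from a liver cDNA sequence. The GSTA2 accession of A_72_P127076 and A_72_P088136 was not found in the RefSeq table of Sscrofa11.1. The pigs described here were singled out after their values were seen. A stretch of 30 bases of each is shown because the probes did not behave alike, with the polyadenylation signal AATAAA in capitals where the stretch holds it.
GSTA2, brightest probe A_72_P127076: atgaaaaagatgccaaggtggcctcgatca
GSTA2, probe A_72_P088136: cctggatgatgtgagactAATAAActagtc
GSTA2, probe A_72_P634937: gtgtcagttttggaatgacgtttaatgata

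The letters AATAAA, read on the strand of the probe alone, occurred in 7 of the 40 probes of the families (17.5%) and in 10.3% of all 60305 probes.

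On A_72_P088136, 2 pigs of the low RFI line with HF had levels of -0.65 and -0.78, whereas the other 46 pigs had 7.76 at the lowest, 8.81 at the median and 9.44 at the highest. On A_72_P634937, the same pigs had -2.80 and -2.55, and the others 5.06, 6.55 and 7.37. On the brightest probe, they had 8.36 and 8.62, within the range of the other pigs from 8.05 to 9.46. These 2 pigs thus lay more than 7 log2 units below every other pig on 2 probes of GSTA2 and not on the remaining one. Their levels of GSTA1 were 8.98 and 9.16, within the range of the group.

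Over all 45236 tested probes, these 2 probes were the only ones on which both pigs lay at least 4 log2 units below every other pig. At a gap of at least 2 log2 units there were 4 such probes, these GSTA2 probes included. The pigs were picked by their level on A_72_P088136, so the gap on that probe followed from the choice. No array had either of these GSTA2 probes below the background threshold. The pigs were on different slides, both scanned on day 2, and 74.4% and 71.4% of the probes of their arrays were well above background, within the range of the other arrays.

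With all 48 pigs, the line log2 FC of GSTA2 was -1.13 (SE 0.51, limma adjusted P = 0.27) on A_72_P088136 and -1.28 (SE 0.50, adjusted P = 0.18) on A_72_P634937. Without these 2 pigs, it was -0.37 (SE 0.12, adjusted P = 0.086) and -0.55 (SE 0.17, adjusted P = 0.066). The sizes thus depended on these pigs, and neither probe was called with or without them. Without them, both probes passed the cut-offs of the study (limma, unadjusted P = 0.0040 and 0.0026). With all 48 pigs neither did (unadjusted P = 0.032 and 0.015). The 22 other pigs of the low RFI line had a mean of 8.48 ± 0.44 on A_72_P088136, between 7.76 and 9.22. On the brightest probe the line log2 FC was -0.12 (SE 0.09, adjusted P = 0.62).

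GSTA1 had 1 pig apart, from the high RFI line with HF, with a level of 5.48 against 7.71 to 9.42 in the other 47 pigs. This was not a pig that stood apart for GSTA2, and its GSTA2 levels were 9.14 on A_72_P088136 and 7.37 on A_72_P634937. Its level of GSTA4, which conjugates hydroxynonenal from lipid peroxidation, was 4.84, the highest of the 48 pigs, the others having 2.15 to 4.18. The line log2 FC of GSTA1 was 0.13 (SE 0.18, limma adjusted P = 0.83) with this pig and -0.01 (SE 0.12, adjusted P = 0.99) without it. That of GSTA4 was 0.01 (SE 0.15, adjusted P = 0.99). The counts of called genes were 2 for line, 1 for diet and 0 for the interaction also without the pigs that stood apart for GSTA2 and without the pig that stood apart for GSTA1.

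**Figure D3:**
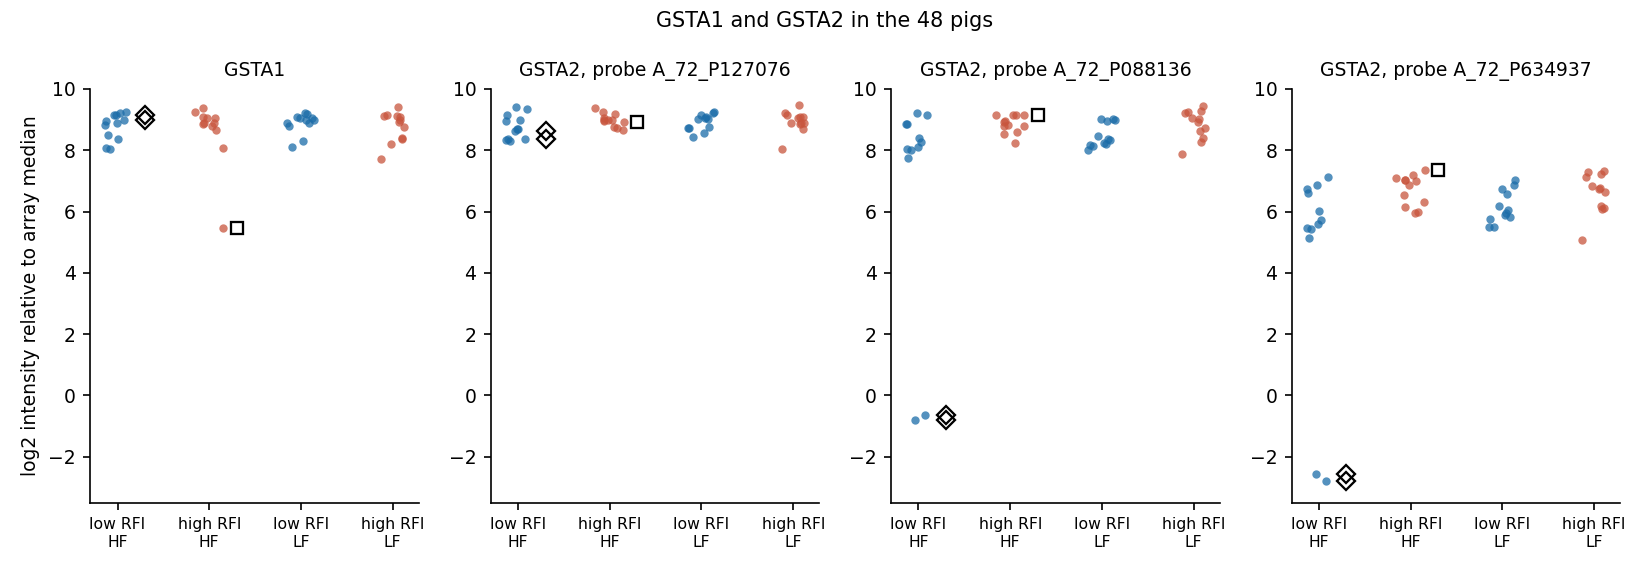
Log2 intensity relative to the array median in each of the 48 pigs for the probe of GSTA1 and the 3 probes of GSTA2, by line and diet group (low RFI blue, high RFI red). Open diamonds repeat, beside the points, the 2 low RFI pigs with HF that were far below the others on 2 probes of GSTA2 but not on A_72_P127076, and the open square repeats the high RFI pig with HF that was at 5.48 for GSTA1.

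MGST1, the microsomal and mitochondrial transferase that also acts as a peroxidase, had levels of 9.26, 9.43 and 9.84 in the low RFI line and 8.97, 9.36 and 9.76 in the high RFI line with HF. LF levels were 9.18, 9.55 and 9.96 in the low RFI line and 9.26, 9.63 and 9.70 in the high RFI line. The 4 groups overlapped, and the line log2 FC was 0.02 (SE 0.06, limma adjusted P = 0.92). Its 8 probes gave line log2 FC between -0.14 and 0.04. The diet log2 FC of its brightest probe was -0.14 (SE 0.06, adjusted P = 0.24), while its other probes gave 0.00 to 0.04. The brightest probe and probe A_72_P035861 ranked some pigs differently. The pig highest on the brightest probe (9.96, low RFI with LF) had 7.33 on A_72_P035861. The pig lowest on the brightest probe (8.97, high RFI with HF) had 7.52 on A_72_P035861. How far the probes of MGST1 vary together over pigs was not tested. MGST3 gave line log2 FC between 0.07 and 0.09 on 5 probes, with adjusted P of 0.56 or more. Among the MGST genes, MGST2 was thus the only one called.

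For the glucuronosyltransferases, UGT2A2 had levels of 4.48, 5.47 and 5.96 in the low RFI line and 4.97, 5.50 and 5.77 in the high RFI line with HF. In pigs fed LF, levels were 4.82, 5.11 and 5.53 in the low RFI line and 4.56, 5.22 and 5.60 in the high RFI line. Its median was higher with HF in both lines, but the diet log2 FC of 0.24 (SE 0.10, limma adjusted P = 0.24) did not pass the test. UGT2B15, which conjugates androgens and some drugs, had a line log2 FC of 0.08 (SE 0.08, adjusted P = 0.78) and a diet log2 FC of -0.05 (SE 0.08, adjusted P = 0.83). Both probes were named through human entries.

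SULT2A1, which sulfates dehydroepiandrosterone and bile acids, had levels of 8.05, 8.41 and 9.17 in the low RFI line and 7.77, 8.36 and 8.63 in the high RFI line with HF. With LF, they were 8.04, 8.74 and 9.25 in the low RFI line and 8.07, 8.53 and 9.27 in the high RFI line. Its line log2 FC was 0.17 (SE 0.11, limma adjusted P = 0.51) and its diet log2 FC -0.20 (SE 0.11, adjusted P = 0.40), with 0.19 and -0.20 on its other probe. The line effects of the 3 tested SULT genes were therefore -0.80 for SULT1A1, 0.25 for SULT1E1 and 0.17 for SULT2A1, of which only the first was called.

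**Figure D4:**
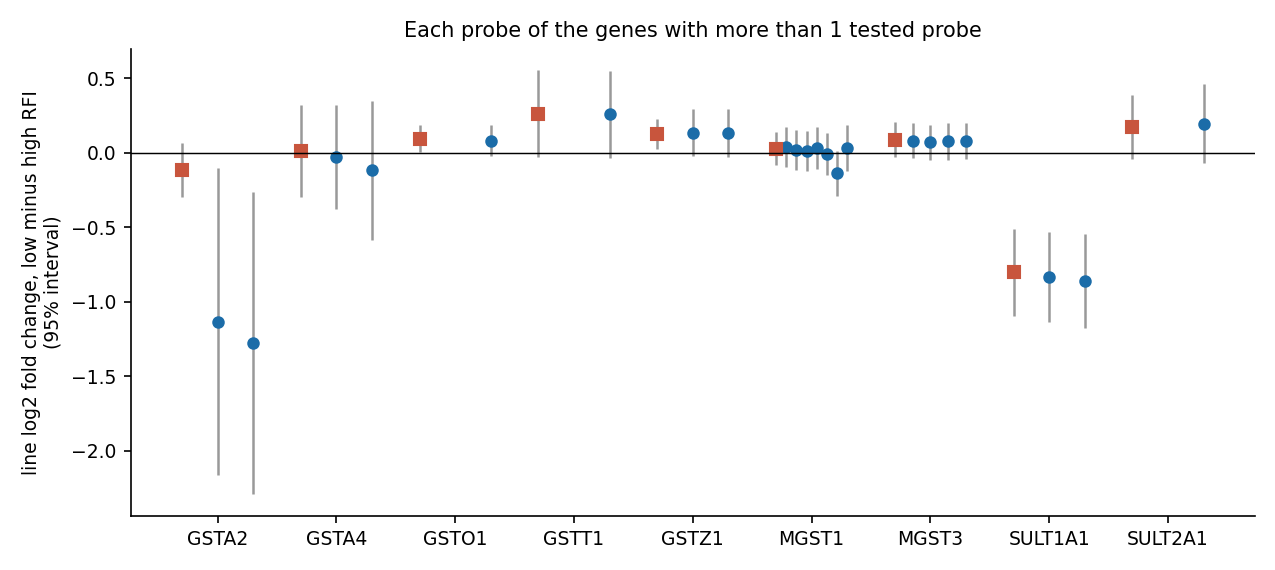
Line log2 FC (low minus high RFI) with its 95% interval for each tested probe of the 9 genes that have more than 1, the brightest as a red square and the others as blue dots. The 3 probes of SULT1A1 lie between -0.86 and -0.80 and the 8 of MGST1 within 0.14 of 0, whereas those of GSTA2 range from -1.28 to -0.12.

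Noise between spots of the same array could be read from 2 pairs of probes with the same sequence under different names, which share the labelling and hybridization. The SD of their difference over 48 arrays was 0.06 for GSTT1 and 0.04 for MGST3 on the log2 scale. The 95% interval of the line effect lay within 0.5 of 0 for 13 of the 17 genes and that of the diet effect for 15 of 17.

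Other genes of the same pathways, 99 in 6 lists of which 81 were tested, gave 2 called for line (2.47%, beside 3.98% of all named genes) and 0 for diet. In the list of glutathione synthesis and recycling, 23 of 25 genes were tested and 1 was called, GPX3, the secreted glutathione peroxidase. GPX3 was lower in the low RFI line, from 4.84 to 6.86 (median 6.16), than in the high RFI line, from 5.85 to 8.11 (median 6.75), and 23 of 24 low RFI pigs were below the high RFI median. Its log2 FC was -0.71 (SE 0.14, limma adjusted P = 0.001), and all 6 of its probes were called, between -0.79 and -0.37. The median log2 FC of the list was -0.03.

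In the list of PAPS supply and sulfate handling, 14 of 18 genes were tested and 1 was called, SLC35B2, which carries PAPS into the Golgi. SLC35B2 was higher in the low RFI line, from 5.14 to 5.75 (median 5.501), than in the high RFI line, from 5.11 to 5.72 (median 5.34). Its log2 FC was 0.15 (SE 0.04, limma adjusted P = 0.040), and 2 of its 4 probes were called. PAPSS2, which makes PAPS, had a log2 FC of 0.08 (SE 0.10, adjusted P = 0.81), and the median of the list was 0.02.

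The lists of UDP-glucuronic acid supply and deconjugation (7 of 8 genes tested), efflux of conjugates (7 of 8), transcription factors of conjugation genes (18 of 20) and other conjugating enzymes (12 of 20) had 0 genes called for line or diet. Their median log2 FC for line were 0.02, -0.06, 0.04 and -0.05. Some of their genes passed only the cut-offs of the study, 1 higher for line among the efflux pumps, 1 higher and 1 lower for line among the transcription factors, and 4 of 18 higher for diet among the transcription factors, beside 6.98% of all named genes for line and 4.17% for diet in either direction.

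In whole liver, fewer cells of a type and less RNA per cell cannot be told apart. Of 9 lists of cell type markers with 51 tested genes, 2 genes were called for line (3.92%, beside 3.98% of all named genes) and 0 for diet (beside 0.536%). The list median farthest from 0 was that of the 3 tested erythroid genes, log2 FC 0.38 for line and -0.57 for diet. That of the 6 bile duct genes was -0.15 for line and 0.26 for diet. RGS5, a marker of pericytes and stellate cells, was higher in the low RFI line (log2 FC 0.87, SE 0.26, limma adjusted P = 0.038), while the median of the 6 genes of its list was 0.08. CYP1A2, a marker of pericentral hepatocytes, was lower on its brightest probe (log2 FC -0.78, SE 0.22, adjusted P = 0.030) and higher on its other probe (0.81, also called), so its direction is uncertain, and the median of its 6 genes was -0.17. The summed linear level of the pericentral list ranged from 671.9 to 1623 in the low RFI line with HF and from 835.9 to 1473 in the high RFI line with HF, and from 1113 to 1700 and from 1042 to 1678 with LF. For the stellate list these sums ranged from 50.92 to 149 and from 53.98 to 136.3 with HF, and from 78.84 to 167.5 and from 66.67 to 122 with LF. Each gene of both lists passed the background threshold on every array, and the ranges of the lines overlapped within each diet. The part of either list in the results for SULT1A1 and MGST2 was not tested.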

How the data were processed

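Liver RNA was labelled with Cy3, and the authors deposited Feature Extraction 10.7.3.1 output with intensities per spot, background-subtracted but not normalized between arrays. A second deposited table holds log2 values of 37378 probes, equal to the log2 median intensity up to a constant per array; R 2.10.0 is named in the submitters' processing notes. Genome positions of probes were not used here.

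Here, log2 background-subtracted intensities were used, 483 outlier spots were set to missing (0 in the families), spots of a probe were averaged, and each array was centred on its median over tested probes. A model with line, diet and interaction was fitted with limma 3.58.1 in R 4.3.3 (prior degrees of freedom 2.8). The methods name an ANOVA with these terms, run as an alternative. Of 22 probes with a pig RefSeq accession, 20 matched the table of Sscrofa11.1. The 2 without a match were the GSTA2 probes A_72_P127076 and A_72_P088136. Correlations and their permutation tests were computed with numpy 2.4.6, with ranks from scipy 1.17.1. The fit was tested on simulated data.

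Members, lists and tests were chosen with earlier results of these data known. Genes given in full were those with a called probe, those passing the cut-offs of the study, and the member of highest mean intensity of each family; GSTA1, GSTA2, GSTA4 and GSTP1 were added after their values were seen.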

Additional observations from a re-analysis of the deposited data

How the results depend on the processing

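The count of called genes was 2 for line, 1 for diet and 0 for the interaction under each alternative of background correction, centring, normalization, filter, outlier spots, batch block, deposited values, test, model, probe choice and call rule, with these exceptions. For line it was 1 on scan day 1 alone and 1 on scan day 2 alone. For diet it was 0 without the filter on dim probes, 0 on scan day 1 and 0 on scan day 2, where fewer arrays or more probes enter by construction. The correlation of SULT1A1 and MGST2 turned to -0.095 on scan day 2 (P = 0.66). Over 17 alternatives, the line log2 FC of SULT1A1 ranged from -0.87 to -0.76 (adjusted P from 0.00011 to 0.065), that of MGST2 from -0.79 to -0.40 (0.00056 to 0.34) and the diet log2 FC of SULT1E1 from -0.65 to -0.33 (0.030 to 0.66). SULT1A1, MGST2 and SULT1E1 kept their sign in each of them, whereas the line effect on GSTA1 went from 0.13 to -0.01 without 1 pig. The line effect on GSTA1 was -0.05 on scan day 1 alone and 0.32 on scan day 2 alone. In the deposited values 16 of the 17 genes could be tested.

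No paired analysis was possible because the labels give every array the same replicate number, so no number ties a pig to one of another group. Slides and scan days each held all 4 groups, and both were fitted as blocks. Precision depends on how many arrays there are and, where probes are dim, on the signal over background. Leaving out the pigs that stood apart for GSTA1 or GSTA2 was chosen after seeing the data and changed no count.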

Other observations

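A gene next to the alpha class members had levels in separate ranges that were unequally shared between the lines; it was chosen after its values were seen and is no member by name. LOC100526118, described as glutathione S-transferase A1-like, lies between GSTA1 and GSTA4 on chromosome 7 in the RefSeq table of Sscrofa11.1, where the order is TMEM14A, GSTA1, a long non-coding RNA, LOC100526118, LOC100510917 and GSTA4. Its 2 probes, A_72_P497485 and A_72_P517950, are annotated to the same transcript, so they are not independent. On A_72_P517950, 20 pigs had levels between 6.17 and 8.13 and the other 28 between -3.18 and -1.18, with no pig between these ranges. The same 20 pigs were high on A_72_P497485, between 5.68 and 7.61.

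For LOC100526118, the high range held 17 of 24 pigs from the low RFI line (7 of 12 with HF and 10 of 12 with LF) and 3 of 24 from the high RFI line (2 of 12 with HF and 1 of 12 with LF). This unequal split is the reason the gene was chosen, so it is given as a description with no test. A_72_P497485 was well above background on 22 arrays (17 low RFI, 5 high RFI), and A_72_P517950 on all 48. The 2 pigs apart for GSTA2 and the pig apart for GSTA1 were all in the low range, with -2.40, -2.03 and -2.38 on A_72_P517950.

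GSTA1 and GSTA4 varied in opposite directions over the 48 pigs after removal of the group means (Pearson r = -0.63, Spearman rho = -0.34). The pair was chosen because this had been seen, so the values are a description with no test. Without the 2 pigs farthest from the median of GSTA1, r was -0.50, and it was -0.53 on scan day 1 and -0.68 on scan day 2.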
